A study of Mus musculus with 4 samples.

Results

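*Pax3*, *Pax7*, *Pax9* and *Pax6* are 4 paired box (PAX) genes with known roles in the developing face, and their expression was analyzed in E11.5 nasal process (NP) tissues of control and ca-*Acvr1(A11)* mutant embryos. They were chosen by symbol as the crest mesenchyme members (*Pax3*, *Pax7* and *Pax9*) and the placode and eye member (*Pax6*) of the family. All 4 were among the 13577 genes listed in the expression table, and 4 of 4 passed the filter on low values. The study crossed a floxed transgene under the CAG promoter that encodes a constitutively active form of ACVR1, a type I BMP receptor (line A11), with *P0-Cre*, a driver active in neural crest cells, to ask how raised BMP/Smad signaling in that lineage affects the midline of the face. Mutants were ca-*Acvr1(A11)* fl/+;*P0-Cre* and controls carried *P0-Cre* without the transgene, so that both groups had the driver. Line A11 is a single transgenic line, and the driver was chosen to act in the neural crest. Bulk RNA-Seq gave 2 libraries titled control and 2 titled ca-*Acvr1* mutant. No source used here says whether embryos were pooled or whether the replicates came from separate embryos, so each p value measures only the spread between these libraries, which may be technical.

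PAX proteins are transcription factors that bind DNA through the paired domain, which the paired box encodes. PAX3 and PAX7 are close relatives that act in the neural crest, and together they pattern the frontonasal mesenchyme, while PAX3 is also needed for melanocyte and muscle precursors. PAX9, which lacks a homeodomain, acts in crest-derived mesenchyme of the palate and tooth buds. PAX6 works in the ectoderm: it marks the preplacodal region and then the nasal and lens placodes, the optic cup and the dorsal forebrain, and embryos without it form neither eyes nor a nose.

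The sequence that defines the family is shown for the 4 genes because they are compared by short reads, which near-identical copies could share. Each line gives 120 aligned bases from the first part of the paired box, 5′ to 3′ on the strand of the gene, from GENCODE transcripts of GRCm38. Capitals mark the bases that are the same in all 4 genes, 64 of 120 (53.3%). The window lies in the coding part of exon 2 of *Pax3* (chr1:78195346-78195465, minus strand), exon 2 of *Pax7* (chr4:139830233-139830352, minus strand), exon 3 of *Pax9* (chr12:56696586-56696705, plus strand) and exon 4 of *Pax6* (chr2:105683834-105683953, plus strand).
Pax3: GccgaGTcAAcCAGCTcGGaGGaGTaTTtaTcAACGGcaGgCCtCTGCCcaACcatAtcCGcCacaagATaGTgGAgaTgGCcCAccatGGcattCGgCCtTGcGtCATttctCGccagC
Pax7: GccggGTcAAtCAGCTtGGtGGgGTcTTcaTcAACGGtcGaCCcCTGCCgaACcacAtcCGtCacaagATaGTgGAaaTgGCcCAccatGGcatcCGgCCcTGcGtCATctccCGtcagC
Pax9: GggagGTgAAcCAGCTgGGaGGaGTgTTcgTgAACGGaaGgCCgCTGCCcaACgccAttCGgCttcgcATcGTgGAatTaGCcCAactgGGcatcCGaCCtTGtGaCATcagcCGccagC
Pax6: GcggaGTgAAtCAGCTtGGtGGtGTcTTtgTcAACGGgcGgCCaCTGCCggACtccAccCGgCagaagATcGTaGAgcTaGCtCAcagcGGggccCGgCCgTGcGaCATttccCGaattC
*Pax3* and *Pax7* were identical at 83.3% of these bases, against 69.2% for *Pax3* and *Pax9*, 68.3% for *Pax3* and *Pax6* and 63.3% for *Pax9* and *Pax6*. The QuantSeq 3′ kit primes at the poly(A) tail, so its reads fall near the end of the transcript, far from this box. A single transcript was chosen for each gene. Words of 20 bases were shared between these transcripts only by *Pax3* and *Pax7*, which had 12 in common, and in the last exons no pair shared any (0 words). The last exons lie at chr1:78101267-78102835 (*Pax3*), chr4:139737062-139740902 (*Pax7*), chr12:56709653-56712707 (*Pax9*) and chr2:105696270-105697071 (*Pax6*). As annotated, the *Pax9* and *Pax6* genes reach beyond these exons, to positions 56712822 and 105697364. The last exon of *Pax9* shares its final 74 bases with *Slc25a21*, a mitochondrial carrier gene on the opposite strand, and whether the counting used strand is not given in the sources used here.

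Expression is given in CPM, the read count of a gene relative to all reads of that library. The totals ranged from 1956831 to 2408827 reads, and 1 read was worth from 0.415 to 0.511 CPM. The titles and the genotype entries of the 4 libraries name the groups in opposite ways. The titles were used, and were the genotype entries correct, each direction below would turn around. *Acvr1* itself was at 21.5 and 23.1 CPM in controls against 24.1 and 12.6 CPM in mutants, overlapping values that do not settle the labels (log2 fold change −0.33 ± 0.28, SE, adjusted p = 0.786 by limma, n = 2 per group). Whether the transgene carries the end of *Acvr1* that 3′ reads sample is not given in the sources used here. Differences were tested with limma on log2(CPM + 1) for 12462 genes whose mean over the libraries exceeded 1 CPM, and a gene was called at an adjusted p under 0.05. This scale understates the change of genes with few reads. The test called 112 genes (0.899%), of which 74 (0.594%) were lower and 38 (0.305%) higher in ca-*Acvr1(A11)* libraries, and the median log2 fold change of all genes tested was 0.03.

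Of the PAX genes, *Pax3* fell 2.21-fold in ca-*Acvr1(A11)* NP tissues, and it was the only 1 of the 4 that passed the test. *Pax7* and *Pax9* were lower and *Pax6* was higher in both ca-*Acvr1(A11)* libraries than in both controls, without passing it. Hence 1 of 3 crest members was called lower, against 0.594% of all genes tested. In all 3 crest members both ca-*Acvr1(A11)* libraries lay below both controls, as did 16.8% of all genes tested, and *Pax6* had the opposite order, as did 21.9%. These tissues are mixtures, and fewer cells of a type cannot be told apart from less RNA in each cell.

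*Pax3*, which is needed in the crest and the dorsal neural tube, was at 73.1 CPM (143 reads) in control replicate 1, 68.4 CPM (154 reads) in control replicate 2, 33.6 CPM (81 reads) in ca-*Acvr1(A11)* replicate 1 and 29.5 CPM (63 reads) in ca-*Acvr1(A11)* replicate 2. Both controls were high, both mutants were low, and the groups did not overlap. By counting error alone the lower control had a 95% Poisson interval of 58.0 to 80.1 CPM and the higher mutant one of 26.7 to 41.8 CPM. Means were 70.7 ± 3.33 CPM for controls and 31.6 ± 2.93 CPM for mutants (SD, n = 2 each). The log2 fold change was −1.14 (SE 0.19, 95% interval −1.53 to −0.76), a level 2.21-fold lower on the log2(CPM + 1) scale, with an adjusted p of 0.000827 by limma and rank 26 of 12462 genes by p. *Pax3* remained called with each library left out in turn, with log2 fold changes from −1.23 to −1.05.

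**Figure D1:**
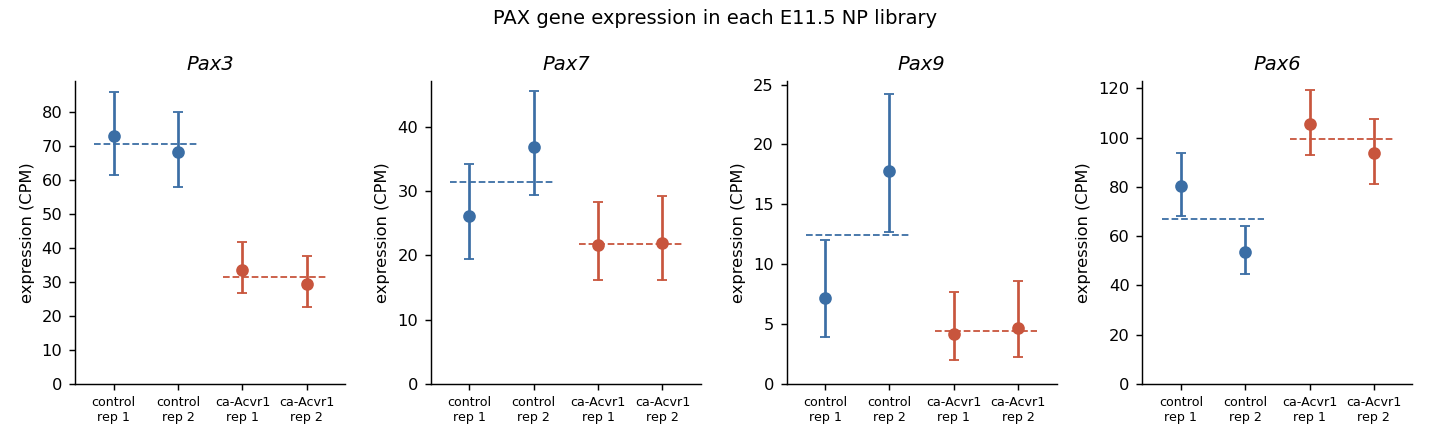
Expression of each PAX gene in CPM (vertical axis, from 0, with its own scale in each panel) in the 4 libraries. Points are libraries (blue control, red ca-*Acvr1(A11)*), bars are 95% Poisson intervals of counting alone and dashed lines are group means. *Pax3* separates the groups widely (68.4 CPM or more against 33.6 CPM or less), whereas the controls of *Pax9* lie 2.48-fold apart.

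*Pax7*, the close relative of *Pax3* in the crest, was at 26.1 CPM (51 reads) and 36.8 CPM (83 reads) in control replicates 1 and 2 and at 21.6 CPM (52 reads) and 22.0 CPM (47 reads) in ca-*Acvr1(A11)* replicates 1 and 2. Both mutants were nearly equal and lay just under control replicate 1, whose counting interval of 19.4 to 34.3 CPM covers them. Means were 31.5 ± 7.63 CPM for controls and 21.8 ± 0.287 CPM for mutants (SD, n = 2 each). The log2 fold change of −0.49 (SE 0.23, 95% interval −0.97 to −0.01) did not pass the test, with an adjusted p of 0.512 by limma. The gap between the controls, 0.48 on the log2 scale, was about as large as the difference between the groups. Without control replicate 1 the log2 fold change was −0.73 and without control replicate 2 it was −0.25, and neither passed.

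*Pax9*, the palate and tooth member, rested on the fewest reads of the 4. It was at 7.15 CPM (14 reads) and 17.8 CPM (40 reads) in control replicates 1 and 2 and at 4.15 CPM and 4.68 CPM (10 reads each) in ca-*Acvr1(A11)* replicates 1 and 2. Control replicate 2 stood far above the other 3 libraries, and the interval of control replicate 1 (3.91 to 12.0 CPM) covers both mutants. Means were 12.5 ± 7.50 CPM for controls and 4.42 ± 0.373 CPM for mutants (SD, n = 2 each). The log2 fold change of −1.19 (SE 0.39, 95% interval −1.98 to −0.40) was as large as that of *Pax3* but did not pass, with an adjusted p of 0.211 by limma.

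The *Pax9* result rested on which control was used. Without control replicate 1 the log2 fold change was −1.79 (adjusted p = 0.00276 by limma) and without control replicate 2 it was −0.59 (adjusted p = 0.907 by limma), so that leaving out 1 library turned the call. With the replicate number as a block, which pairs the libraries by name only, the adjusted p was 0.0515 by limma, just outside the threshold. Over all genes this block called 229, against 112 without it. *Slc25a21*, which shares the end of the last exon, was at 25.6 and 46.6 CPM in controls against 13.3 and 23.4 CPM in mutants (log2 fold change −0.93 ± 0.28, SE, adjusted p = 0.152 by limma, n = 2 per group). Its values were also highest in control replicate 2. Reads of both genes in the shared bases cannot be told apart without the strand setting.

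*Pax6*, the ectodermal member, was at 80.2 CPM (157 reads) and 53.7 CPM (121 reads) in control replicates 1 and 2 and at 105.4 CPM (254 reads) and 93.6 CPM (200 reads) in ca-*Acvr1(A11)* replicates 1 and 2. Both mutants were above both controls, and control replicate 2 was the lowest. The interval of control replicate 1 (68.2 to 93.8 CPM) overlapped that of ca-*Acvr1(A11)* replicate 2 (81.1 to 107 CPM). Means were 67.0 ± 18.7 CPM for controls and 99.5 ± 8.38 CPM for mutants (SD, n = 2 each). The log2 fold change of 0.59 (SE 0.18, 95% interval 0.22 to 0.96), a level 1.51-fold higher on the log2(CPM + 1) scale, did not pass, with an adjusted p of 0.175 by limma.

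As for *Pax9*, the result depended on which control was used. The log2 fold change of *Pax6* was 0.87 (adjusted p = 0.000761 by limma) without control replicate 1 and 0.30 (adjusted p = 0.792 by limma) without control replicate 2. With a replicate block, which pairs the libraries by name only, it was 0.59 (adjusted p = 0.0306 by limma), past the threshold. Control replicate 2 thus had more *Pax7* and *Pax9* and less *Pax6* than control replicate 1, while the 2 controls were nearly equal in *Pax3* (a gap of 0.09 on the log2 scale).

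**Figure D2:**
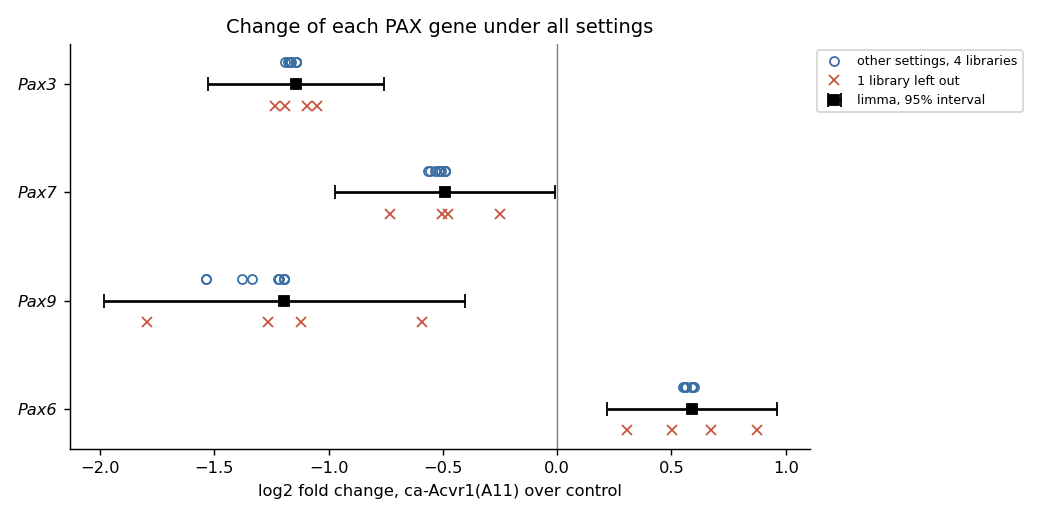
Log2 fold change of each PAX gene, ca-*Acvr1(A11)* over control (horizontal axis, log2 scale). Squares with bars are limma estimates with 95% intervals, circles are 10 other ways of processing all 4 libraries and crosses are fits with 1 library left out. No point crosses 0, and the crosses spread least for *Pax3* (−1.23 to −1.05) and most for *Pax9* (−1.79 to −0.59).

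To compare the crest members with *Pax6* directly, the log2 ratio of each to *Pax6* was taken within a library. This removes the scaling of the library except for the effect of the 1 CPM added to each value. For *Pax3* the ratio was −0.13 and 0.34 in control replicates 1 and 2 and −1.62 and −1.63 in ca-*Acvr1(A11)* replicates 1 and 2, a change of −1.73. For *Pax7* the ratio was −1.59 and −0.53 in control and −2.24 and −2.04 in ca-*Acvr1(A11)* libraries, a change of −1.08. For *Pax9* it was −3.32 and −1.54 in control and −4.37 and −4.06 in ca-*Acvr1(A11)* libraries, a change of −1.78. In each of the 3 pairs both mutant ratios lay below both control ratios. This order had to follow from the opposite orders of the crest members and *Pax6* given above, and adds nothing to them. An exact permutation test over 4 libraries (2-sided) gave p = 0.333 for each, and 0.333 after adjustment over the 3 pairs, the smallest value this design allows, so it cannot reach the threshold. Since *Pax6* is in all 3 ratios, they are not independent of each other.

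**Figure D3:**
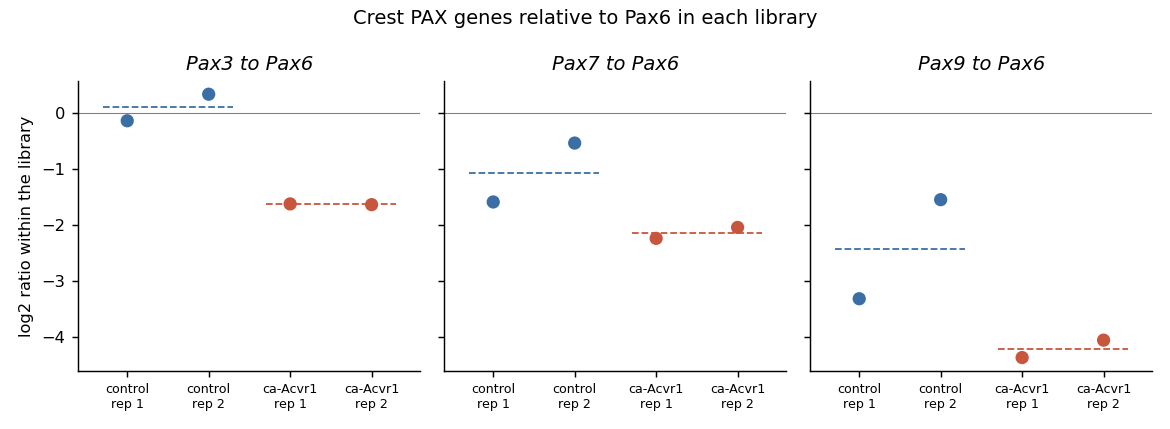
Log2 ratio of each crest PAX gene to *Pax6* within a library (vertical axis, log2 of the ratio of CPM + 1). Points are libraries and dashed lines are group means. The mutant points nearly coincide for *Pax3* (−1.62 and −1.63), and the control points lie farthest apart for *Pax9* (−3.32 and −1.54).

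Of the remaining PAX genes, *Pax2*, which acts in the optic stalk, ear and kidney, was at 1.02 and 1.78 CPM in controls against 4.57 and 3.28 CPM in mutants, on 2 to 11 reads. Its log2 fold change of 1.04 (SE 0.47) did not pass (adjusted p = 0.465 by limma). *Pax1*, the close relative of *Pax9* that acts in the sclerotome, was at 0.511 and 0.888 CPM in controls against 0 and 0.468 CPM in mutants, under the level of 3 reads throughout, and was not tested. *Pax4*, *Pax5* and *Pax8* were not analysed here.

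The products of the *Six2*, *Eya1* and *Dach1* gene families work with PAX factors in a shared network. Of 10 genes listed from these families, all tested, 1 was called lower, against 0.594% of all genes. The list leaves out *Six3* (log2 fold change 0.71, called higher) and *Six6* (0.71, not called), which were listed with PAX6 below. All gene lists used here were hand-written with earlier results of these data known. Counts over them are descriptions and were not tested. *Six2*, a homeobox gene of frontonasal mesenchyme, was at 108.3 and 152.3 CPM in controls against 66.0 and 70.7 CPM in mutants, and fell by 0.90 on the log2 scale (SE 0.17, adjusted p = 0.00476 by limma). Without control replicate 2 its adjusted p was 0.0714 by limma. The median of the 10 was −0.08, against 0.03 for all genes tested. *Six5* (−0.63) and *Eya4* (−0.52) were the next by p and did not pass.

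Among genes described as targets of PAX3 and PAX7, none was called. Of 14 such genes 10 were tested, and by limma 0 were called and 2 had an unadjusted p under 0.05, both lower, a count to be read against 4.12% of all genes lower and 5.42% higher at that level. By edgeR and by DESeq2 the number called was also 0. With 1 library left out the number varied, as it did over all genes. The median of the 10 was −0.13. *Msx2*, a homeobox gene of the distal face, was at 12.3 and 23.5 CPM in controls against 10.4 and 10.8 CPM in mutants (log2 fold change −0.64, adjusted p = 0.515 by limma). *Tgfb2*, a growth factor of the crest, had a log2 fold change of −0.52 and *Met*, the receptor of migrating muscle precursors, one of 0.67. Neither passed. *Myod1*, *Wnt1*, *Fgfr4* and *Tyrp1* were not analysed here.

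Among 9 genes that act with PAX9 in the palate and tooth buds, 8 were tested and 1 was called lower, against 0.594% of all genes. *Barx1*, a homeobox gene of molar and maxillary mesenchyme, was at 3.58 and 10.2 CPM in controls against 1.25 and 0.468 CPM in mutants (log2 fold change −1.98, SE 0.49, adjusted p = 0.0478 by limma). The groups were separate, but the mutant values rest on 3 reads and 1 read. Only 7 of the 10 other settings gave a result for *Barx1*, and it was called under 4 of them. The call was also lost without control replicate 2 (log2 fold change −1.33) or ca-*Acvr1(A11)* replicate 2 (−1.67). *Tbx22*, a palate gene, had a log2 fold change of −1.46 and *Shox2*, an anterior palate gene, one of −0.58, and neither passed. The median of the 8 was −0.46. *Barx1* and *Tbx22* were, like *Pax9*, higher in control replicate 2 than in control replicate 1. How many genes of this list were called depended on which library was left out, as it did over all genes.

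Of 11 genes that act with PAX6 in placodes and the eye 8 were tested, 2 were called higher, against 0.305% of all genes tested, and their median was 0.60. In 6 of the 8 both mutants were above both controls, as in 21.9% of all genes. *Otx2*, which specifies anterior ectoderm and forebrain, was at 167.6 and 126.5 CPM in controls against 252.4 and 224.1 CPM in mutants (log2 fold change 0.70, adjusted p = 0.0164 by limma). *Six3*, a homeobox gene of the anterior placodes and eye field, was at 473.7 and 289.0 CPM in controls against 611.1 and 600.8 CPM in mutants (log2 fold change 0.71, adjusted p = 0.0278 by limma). Like *Pax6*, both were lowest in control replicate 2. Neither was called without control replicate 2, where the adjusted p by limma was 0.111 for *Otx2* and 0.372 for *Six3*, nor without ca-*Acvr1(A11)* replicate 1 (0.170 and 0.0518), nor by DESeq2. The number called depended on which library was left out, as it did over all genes. The 8 genes summed to 1399 and 1080 CPM in controls and 1829 and 1777 CPM in mutants. *Sox2*, the progenitor factor that partners PAX6 in the lens, had a log2 fold change of 0.50 and missed the threshold (adjusted p = 0.0803 by limma). The lens genes *Foxe3* and *Cryaa* were not analysed here. *Rax*, an eye field gene, was at 1.02 and 0.444 CPM in controls (2 reads and 1 read) against 2.91 and 2.81 CPM in mutants (7 and 6 reads). Its log2 fold change was 1.17 (adjusted p = 0.432 by limma). The groups overlapped for *Maf* (0.04) and *Prox1* (−0.37), also of this list.

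Mesenchymal markers differed in the direction of the crest members. Of 17 genes of frontonasal crest mesenchyme, all tested, 11 were called lower, against 0.594% of all genes, and their median was −0.78. This list too was written with earlier results of these data known, so its counts describe these genes and carry no test. The 15 genes with both mutants below both controls compare with 16.8% of all genes. The summed level of the 17 was 3271 and 3752 CPM in controls against 2008 and 2093 CPM in mutants. *Alx1* (−1.13), *Alx4* (−0.94), *Prrx1* (−1.19) and *Prrx2* (−1.42), homeobox genes of facial mesenchyme, and the collagen gene *Col1a2* (−1.25) fell, and each remained called under 10 of 10 other settings and with any 1 library left out. *Foxc1* (−0.75), *Col3a1* (−0.71), *Twist1* (−0.78) and *Foxc2* (−0.93) were also called. The adjusted p by limma was 0.0864 for *Foxc1* without ca-*Acvr1(A11)* replicate 1. Without control replicate 2 it was 0.264 for *Col3a1*, 0.680 for *Twist1* and 0.307 for *Foxc2*, and without ca-*Acvr1(A11)* replicate 1 it was 0.330 for *Col3a1* and 0.413 for *Foxc2*. DESeq2 called none of *Col3a1*, *Twist1* and *Foxc2*, and of the 10 other settings of all 4 libraries, DESeq2 included, *Col3a1* was called under 8, *Twist1* under 7 and *Foxc2* under 6. *Pdgfra*, a receptor of crest mesenchyme, was lower by −2.60 as deposited, but its 2 mutant values are not whole numbers of reads, and with the nearest whole-read values it was −1.45 and still called. DESeq2 called 7 of the 17 and edgeR 12, and with 1 library left out the number called by limma varied, as it did over all genes. The log2 fold change of *Pax3* lies within the range of the called genes of this list.

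Ectodermal and neural markers had positive medians, as did the genes listed with PAX6. Of 14 surface epithelium genes 2 were called higher, against 0.305% of all genes, the adhesion genes *Cdh1* (log2 fold change 0.78, adjusted p = 0.0145 by limma) and *Epcam* (0.72, adjusted p = 0.0264 by limma), and the median was 0.51. Their summed level was 295 and 277 CPM in controls against 452 and 419 CPM in mutants. Without ca-*Acvr1(A11)* replicate 1 the adjusted p by limma was 0.102 for *Cdh1* and 0.202 for *Epcam*, without ca-*Acvr1(A11)* replicate 2 it was 0.0832 for *Epcam*, and without control replicate 2 it was 0.0924 for *Cdh1*. DESeq2 called neither (adjusted p = 0.189 for *Cdh1* and 0.345 for *Epcam*). Of 14 genes of the olfactory placode and its young neurons 1 was called higher, against the same 0.305%, the zinc finger gene *Sp8*, at 31.2 and 26.2 CPM in controls against 55.2 and 52.9 CPM in mutants (log2 fold change 0.90, adjusted p = 0.0195 by limma), and the median was 0.23. Of the 14, 3 had negative fold changes. At an unadjusted p under 0.05 by limma 4 were higher, against 5.42% of all genes, and 1, *Gap43* (−0.54), was lower, against 4.12%. *Sp8* was called without control replicate 1 and in none of the other 3 fits with a library left out (adjusted p from 0.0727 to 0.131 by limma), nor by DESeq2 (adjusted p = 0.404). Of 9 neural tube and forebrain genes 0 were called by limma, edgeR or DESeq2, 4 had higher values with an unadjusted p under 0.05, against 5.42% of all genes, and the median was 0.30. Of these, *Sox1* (0.51), *Nkx2-1* (0.72) and *Sox3* (0.44) had the smallest p. The summed level was 1020 and 950 CPM in controls and 1206 and 1188 CPM in mutants for the neural list, and 730 and 740 CPM in controls and 870 and 867 CPM in mutants for the olfactory list. In both lists the number called depended on which library was left out, as it did over all genes. The part of changed cell type shares in the PAX values was not tested.

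**Figure D4:**
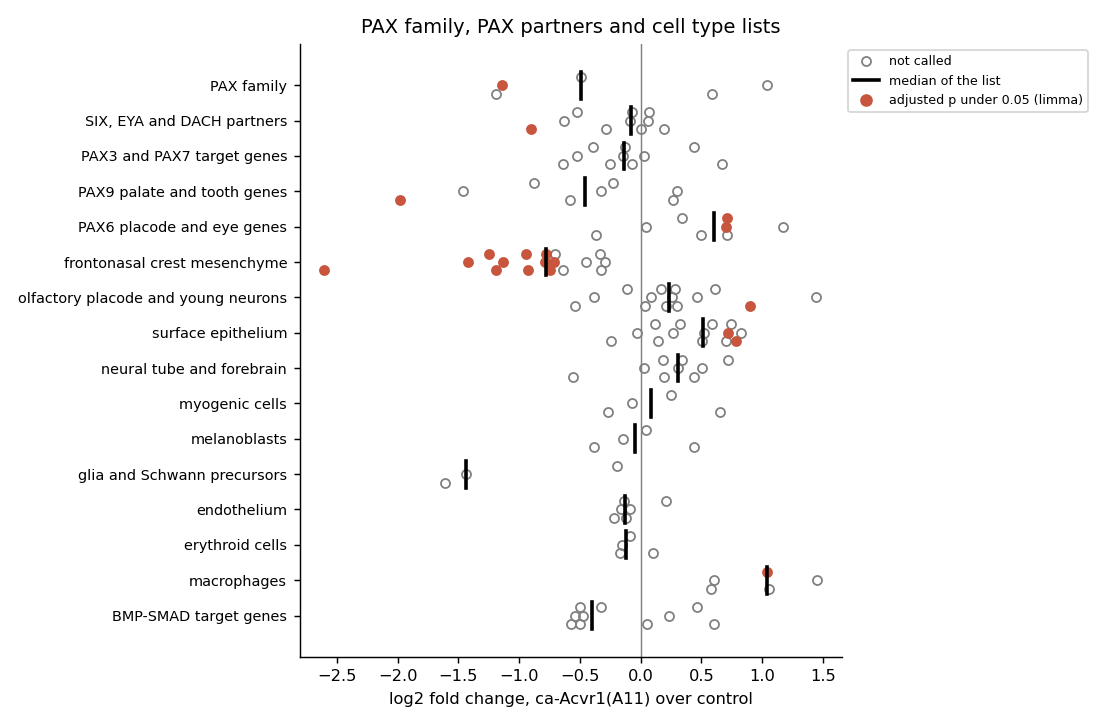
Log2 fold change, ca-*Acvr1(A11)* over control (horizontal axis, log2 scale), of each tested gene of 16 lists. Filled points passed limma at an adjusted p under 0.05, open points did not, and black lines are list medians. Crest mesenchyme lies at or below −0.29 (median −0.78), and the placode and eye genes listed with PAX6 have a median of 0.60.

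Muscle and pigment precursors, in which PAX3 and PAX7 also act, were followed by their markers. Myogenic genes summed to 8.69 and 9.77 CPM in controls against 10.4 and 12.6 CPM in mutants, with 0 of 4 tested genes called by limma and 0 at an unadjusted p under 0.05. Melanoblast genes summed to 41.4 and 29.3 CPM in controls against 35.7 and 40.2 CPM in mutants, with 0 of 4 called and 0 at that level. The myogenic sum rests on few reads, and whether the share of these cells changed was not tested. Of the 10 other settings only 6 gave a result for *Actc1* and *Des* and 7 for *Tnnt1*, so edgeR and DESeq2 cannot serve as a check on this list. For glia and Schwann precursors, also of crest origin, *Sox10* was at 9.71 and 7.99 CPM in controls against 2.08 and 3.28 CPM in mutants. Its log2 fold change of −1.44 and that of *Foxd3*, −1.61, did not pass (adjusted p = 0.0926 and 0.178 by limma). *Sox10* rests on 5 and 7 reads in mutants, and *Foxd3* on 6 and 18 reads in controls against 4 and 1 in mutants. Of the 3 tested genes of this list 0 were called by limma. In 2 of them both mutants lay below both controls, as in 16.8% of all genes tested. With a replicate block, which pairs the libraries by name only, *Sox10* and *Foxd3* passed (adjusted p = 0.0252 and 0.0466 by limma). The log2 fold change of *Foxd3* ran from −2.19 to −1.04 with 1 library left out.

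The genes whose pattern over the 4 libraries was nearest to each PAX gene were sought among genes with a mean of at least 10 CPM, by Euclidean distance between centred log2(CPM + 1) values. Nearest to *Pax3* were *Bcl2l12* (distance 0.0975), *Fam43a* (0.116) and the chemokine gene *Cxcl13* (0.121), whose log2 fold changes were −1.09, −1.24 and −1.15, all 3 called. Nearest to *Pax7* were *Efcab11* (0.0322), *Mdm1* (0.0799) and *Itm2a* (0.0806), and nearest to *Pax6* were *Shroom3* (0.0414), *Xrcc6* (0.0577) and *Cers4* (0.0675). *Pax9* had close company only in *Tmem26* (0.0966), at 12.3 and 32.4 CPM in controls against 7.89 and 8.89 CPM in mutants, with *Mylip* (0.253) and *Msx1os* (0.393) farther away. Within a distance of 0.25 lay 8 genes for *Pax3*, 191 for *Pax7*, 118 for *Pax6* and 1 for *Pax9*. With 4 libraries such likeness is a description of these samples and carries no test.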

How the data were processed

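E11.5 NP tissues gave 4 libraries, 2 per group, grouped by their titles. The authors deposited CPM values, scaled to library totals, for 13577 genes. Per the submitters' processing notes STAR, featureCounts 1.6.4, DESeq2 and mm10 were used, and the strand setting is not given in the sources used here. Whole reads were recovered from the smallest step between values (tolerance 0.02 reads), and 99.92% of 54308 values were whole. The other 43, in 22 genes, were not, and none is a PAX gene. The listed genes hold from 97.2% to 97.3% of the totals, and 0 columns of values were unused.

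Since the deposited values are CPM, limma 3.58.1 (with a trend) was run on log2(CPM + 1) for genes whose mean exceeded 1 CPM, and p values were adjusted by Benjamini-Hochberg. As alternatives, edgeR 4.0.16, DESeq2 1.42.0 and limma-voom were run on recovered reads, and edgeR called 133 genes. Other pseudocounts, filters, scalings, whole-read values, a replicate block and the omission of each library were also tried. A fit without 1 library assumes that the lone sample of its group varies like the other group. On data simulated for this comparison (12406 genes), limma called 9 of 50 genes changed by 0.5 on the log2 scale, 37 of 50 changed by 1 and 50 of 50 changed by 1.5. The changed genes were drawn only from genes with a higher mean read count than *Pax9*, and all genes had the same simulated spread. These shares thus do not cover genes with as few reads as *Pax9*. Ratios to *Pax6* were tested by exact permutation. Poisson intervals cover counting error only.

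The rule for naming genes took the 4 PAX genes, the rest of the family, the 3 genes of smallest p and any called gene of each list, the 3 nearest in pattern to each PAX gene, and *Acvr1*. Named outside it are *Slc25a21* (which overlaps *Pax9*), *Rax*, *Six6*, *Maf*, *Prox1*, *Gap43* and genes not analysed here. *Rax*, *Six6*, *Maf*, *Prox1* and *Gap43* were chosen after their values were seen. Some genes the rule took are not reported here. The PAX genes and the 16 hand-written lists were chosen with earlier results of these data known. R was 4.3.3 and Python 3.11.15, with matplotlib 3.10.9, scipy 1.17.1, pandas 2.3.3, statsmodels 0.14.6 and numpy 2.4.6. Coordinates are from GENCODE's annotation of GRCm38.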

Additional observations from a re-analysis of the deposited data

How the results depend on the processing

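The number of genes called, 112, was 39 with DESeq2 (31 lower, 8 higher), 133 with edgeR (94 lower, 39 higher), 229 with a replicate block (132 lower, 97 higher) and from 94 to 462 with 1 library left out, the highest without control replicate 1. *Pax3* was called under all 10 other settings (log2 fold change −1.19 to −1.14) and in all 4 fits with a library left out (−1.23 to −1.05). Over the other settings, which include limma, edgeR and DESeq2, the adjusted p ran from 1.01e-06 to 0.0105 for *Pax3*, 0.397 to 1.00 for *Pax7*, 0.0515 to 1.00 for *Pax9* and 0.0306 to 1.00 for *Pax6*. *Pax7* was called in none of these 14 fits, with log2 fold changes of −0.73 to −0.25 when a library was left out. *Pax9* was called only without control replicate 1 (−1.79), with a range of −1.79 to −0.59 over libraries left out. *Pax6* was called with the replicate block (0.59) and without control replicate 1 (0.87), with a range of 0.30 to 0.87. With 1 library left out the ratio to *Pax6* changed by −1.97 to −1.49 for *Pax3*, −1.61 to −0.55 for *Pax7* and −2.67 to −0.90 for *Pax9*. The cause of these differences was not tested. Of the other genes named or listed by smallest p that were refitted, 7 that were not called changed sign when 1 library was left out: *Tnnt1* (−0.0303 to 0.52), *Des* (−0.58 to 0.0382), *Mitf* (−0.0395 to 0.91), *Dct* (−0.78 to 0.49), *Emcn* (−0.38 to 0.0668), *Hbb-bh1* (−0.43 to 0.12) and *Acvr1* (−0.77 to 0.11). The replicate numbers pair the libraries by name only: the deviations of same-numbered libraries from their group means correlated with r = 0.119 across 8354 genes, which are not independent replicates. Depth limits *Pax9*, with 10 reads in each ca-*Acvr1(A11)* library.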

Other observations

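Of 10 BMP-SMAD target genes tested 0 were called by limma. At an unadjusted p under 0.05, 5 of the 10 were lower and 2 were higher, against 4.12% and 5.42% of all genes tested, and the median log2 fold change was −0.40, against 0.03 for all genes. *Id2*, an inhibitor of bHLH factors, was at 406 and 714 CPM in controls against 323 and 407 CPM in mutants (log2 fold change −0.57, adjusted p = 0.187 by limma). *Smad7*, an inhibitor of the pathway, had a log2 fold change of −0.54 and *Id4* one of 0.46, and neither passed. DESeq2 called 0 of the 10, and with 1 library left out the number called by limma varied, as it did over all genes.

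Of 5 macrophage genes tested 1 was called higher, against 0.305% of all genes, and the median log2 fold change was 1.04. *Cx3cr1*, the fractalkine receptor, was at 23.0 and 19.5 CPM in controls against 39.0 and 51.0 CPM in mutants (log2 fold change 1.04, adjusted p = 0.0143 by limma, but 0.266 without ca-*Acvr1(A11)* replicate 2 and 0.280 by DESeq2). *C1qb* (1.05) and *C1qa* (1.45) did not pass. The list summed to 38.3 and 35.1 CPM in controls against 59.4 and 92.7 CPM in mutants. Endothelial genes (147 and 150 CPM against 149 and 136 CPM, median −0.13, 0 of 6 called by limma, edgeR or DESeq2, 0 at an unadjusted p under 0.05) and erythroid genes (6984 and 8436 CPM against 6677 and 7158 CPM, median −0.12, 0 of 4 called by the same tests, 0 at that level) were in between.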
